A study of Mus musculus with 10 samples.

Results

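H3K27ac at genes of the oligodendrocyte lineage was described in the cerebral cortex of C57BL/6J mice with 1 Dnmt3a allele knocked out. The genes were Olig2, Olig1, Sox10, Mbp and Cnp. A region belonged to a gene when it overlapped a window in mm9 coordinates drawn around that gene. This rule uses positions only, and it took 15 of the 50898 regions of the deposited table: 7 at Mbp, 3 at Sox10, 2 at Olig1, 2 at Cnp and 1 at Olig2. The windows were not checked against an mm9 annotation, so a region is called by the gene of its window and its class is the authors' own. Of the 15 regions, 6 carried the class prom (promoter), 8 enh (enhancer) and 1 uaProm, whose meaning the sources used here leave unstated, and every window held at least 1 prom region. The authors numbered enh regions along the genome, and the numbers run on without a gap through the Mbp window. Around the Olig2 and Olig1 windows 2 numbers are absent, around Sox10 1 and around Cnp 1, so an enhancer region may be missing in or near these windows. Such gaps are common, as 32614 enh regions are present with numbers up to 45320. The absent numbers were counted between flanking enh regions and need not fall within a window.

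The 10 libraries came from 8-week-old littermates in 5 pairs, each with 1 heterozygous knockout (Het, n = 5) and 1 wild type (WT, n = 5). Litters 1, 3 and 5 were male (6 animals) and litters 2 and 4 female (4 animals). Het and WT shared strain, age, tissue, sex within a litter and antibody (Abcam ab4729). The sources used here do not say how the Dnmt3a allele was deleted. The description of Het 5 carries the term cKO, while its genotype label is heterozygous. Values are pseudo-counts, which are read counts that the authors adjusted to 1 common library size. Between 2771534 (WT 5) and 8453140 (Het 2) reads lay in all regions of a library, and single member regions held between 22 and 2908 reads per library.

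Oligodendrocytes form the myelin sheaths of axons in the brain, and their precursors persist in the adult cortex. Olig2 and Olig1 are neighbouring genes for basic helix-loop-helix transcription factors; Olig2 specifies the lineage and Olig1 acts with it during maturation. Sox10, an HMG-box factor induced downstream of Olig2, activates myelin genes. Mbp codes for myelin basic protein, which compacts the sheath, and Cnp for an enzyme of uncompacted myelin, cyclic nucleotide phosphodiesterase. H3K27ac marks active promoters and enhancers, and Dnmt3a is a de novo DNA methyltransferase whose targets include CG sites. The cortex holds neurons and other glia besides oligodendrocytes, and in such bulk tissue fewer cells of a type and less acetylation per cell cannot be told apart. Marker lists of other cell types were not analysed here.

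Because the genotype concerns an enzyme that methylates CG sites, the promoter sequences of a regulator and of a myelin gene are shown with each CG in capitals. RefSeq entries of GRCm38.p6, covering 250 bases before to 50 bases after a start, were at hand for 2 of the 5 genes. They lie on the plus strand at chr16:91225300-91225599 (Olig2) and chr11:100574689-100574988 (Cnp) of that build, and they were not placed within the mm9 regions.
Olig2: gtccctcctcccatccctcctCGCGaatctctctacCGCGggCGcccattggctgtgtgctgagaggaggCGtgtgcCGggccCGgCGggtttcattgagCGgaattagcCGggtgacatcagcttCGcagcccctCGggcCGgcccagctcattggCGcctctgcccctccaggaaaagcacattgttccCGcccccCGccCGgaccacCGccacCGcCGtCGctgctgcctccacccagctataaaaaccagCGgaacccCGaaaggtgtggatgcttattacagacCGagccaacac
Cnp: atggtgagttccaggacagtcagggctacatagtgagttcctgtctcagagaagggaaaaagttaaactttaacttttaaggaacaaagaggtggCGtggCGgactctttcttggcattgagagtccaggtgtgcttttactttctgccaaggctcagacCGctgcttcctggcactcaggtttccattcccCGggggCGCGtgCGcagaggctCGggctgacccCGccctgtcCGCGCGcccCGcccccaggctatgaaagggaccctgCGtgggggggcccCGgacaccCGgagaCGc
The Olig2 promoter held 25 CG pairs, more than 81.6% of 32851 mouse promoters of the same length, and was 65.0% G or C. The Cnp promoter held 17, more than 68.6% of them, and its CG pairs lay mostly in the part nearer the start. The median promoter held 7. Other motifs were searched on both strands. CANNTG, the E-box that helix-loop-helix factors bind, was found once in Cnp, 124 bases before the start, and not in Olig2; 72.3% of promoters hold it. ACAAAG, a core of SOX motifs, was found once in Cnp, 167 bases before the start, and not in Olig2; 18.7% of promoters hold it. TATAAA was found in Olig2, 8 bases before the start, and not in Cnp; 13.6% hold it. None of these motifs overlapped another in these windows.

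The loci differed in the extent of acetylation. The windows were of unequal length and that of Mbp was the longest, so the number of regions and the summed signal of a window depend in part on its length. At Mbp a prom region of 55812 bp, chr18:82686871-82742682, ranked 55 by width and 83 by mean signal among all 50898 regions. It carried a mean of 1824 pseudo-counts over 10 animals. A second prom region, chr18:82638067-82650909, lay at the start of the Mbp window and had a mean of 343. Between and beyond them lay 5 enh regions, from 2294 to 11275 bp wide, with means from 43.3 (chr18:82682719-82685012) to 252 (chr18:82653537-82664811). The prom region of Olig2, chr16:91221136-91234634, was 13499 bp wide with a mean of 291. Olig1 had a narrower prom region of 3992 bp, chr16:91268948-91272939, with a mean of 155, and an enh region on its Olig2 side, chr16:91259812-91267536, with a mean of 143. Sox10 had 1 prom region, chr15:78988900-79000874, with a mean of 261, between 2 enh regions, chr15:78981448-78984413 and chr15:79003871-79008095, with means of 67.9 and 78.4. At Cnp the prom region chr11:100435408-100447143 had a mean of 386, and the uaProm region chr11:100431525-100434002 one of 87.6. In the RefSeq genes of GRCm38.p6, Cnp overlaps the coding gene Dnajc7, and Sox10 lies next to Polr2f, so signal in these windows need not belong to the named gene alone.

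**Figure D1:**
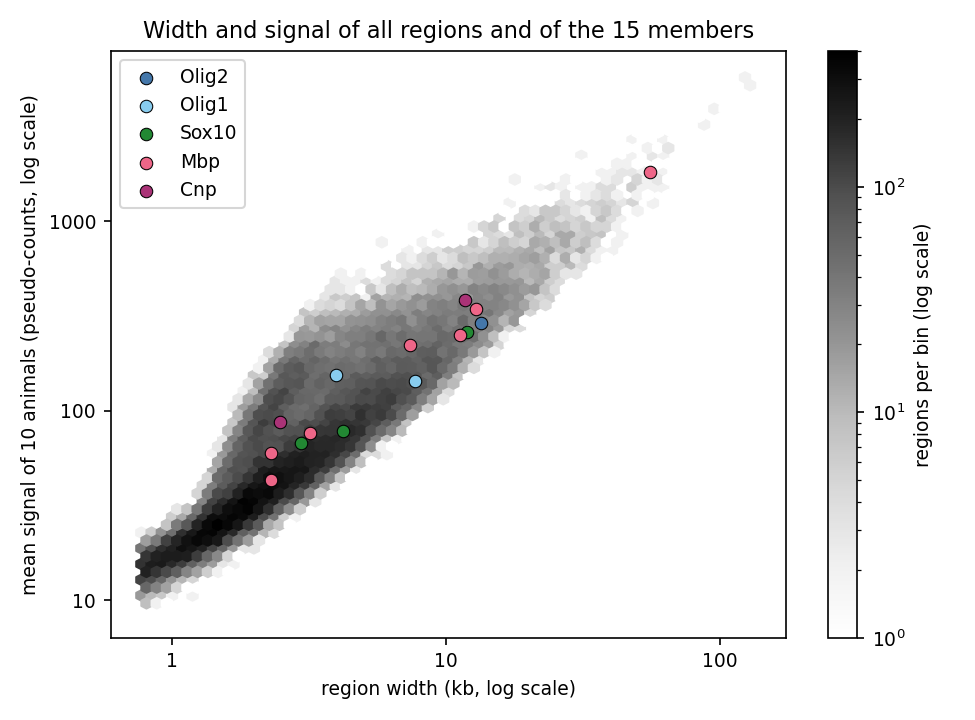
Region width in kb (x axis, log scale) against mean signal of 10 animals in pseudo-counts (y axis, log scale). Grey hexagons count all 50898 regions, and coloured points are the 15 regions at the 5 genes. The broad Mbp region at 55812 bp and 1824 pseudo-counts lies near the upper end. Of the other 14, the Cnp prom region is above 95.7% of all regions by signal and the weakest Mbp enh region above 39.6%.

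Per kb of width the order was different. The Olig1 prom region was densest, at 38.9 ± 6.97 pseudo-counts per kb (SD over 10 animals), followed by the Cnp uaProm region at 35.3 ± 4.08, the Cnp prom region at 32.9 ± 3.27 and the broad Mbp region at 32.7 ± 2.96. In this order each of the 4 differed from the next by less than the SD between animals. The other Mbp prom region had 26.7 ± 3.18, Sox10 21.8 ± 1.96 and Olig2 21.5 ± 2.38, and the last pair again lay within the SD. Enhancer regions ran from 18.5 ± 1.74 (chr15:79003871-79008095, Sox10) and 18.5 ± 1.84 (chr16:91259812-91267536, Olig1) to 30.0 ± 3.44 (chr18:82743711-82751116, Mbp).

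The first comparison asked whether loss of 1 Dnmt3a allele went with a change of H3K27ac at these genes. None of the 15 regions passed the limma test of Het against WT (adjusted p = 1.00 for each over 50898 regions), none had an unadjusted p under 0.05, and limma-voom on whole reads gave 0 for both as well. Over all regions 0.00196% passed and 2.1% had an unadjusted p under 0.05. When litters were fitted as a block, the members' counts were again 0 and 0, against 0.00589% and 4.63% of all regions. Fold changes at the members ran from -0.14 to 0.21 on the log2(value + 1) scale, with 7 of 15 above 0 and a median of -0.026, against a median of 0.009 over all regions. Het and WT animals overlapped in all 15 regions; they were apart in 0.375% of all regions. The authors' deposited table lists an FDR of 1.0 for each of the 15.

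Among the regulators, the Olig2 prom region had 289, 313, 291, 302 and 249 pseudo-counts in WT 1 to 5 and 270, 351, 288, 314 and 243 in Het 1 to 5. Both the lowest and the highest animal were Het, and litter 5 was the lowest in each genotype. The log2 fold change was 0.016 (SE 0.095), and its 95% interval allows from 0.885-fold to 1.15-fold. The Olig1 prom region spread more. It had 178, 140, 156, 169 and 137 in WT 1 to 5 and 124, 163, 199, 179 and 109 in Het 1 to 5. Het animals thus lay both above and below every WT animal, from 109 to 199 in Het against 137 to 178 in WT. Within genotypes its coefficient of variation was 19.0%, larger than in 92.8% of regions in its signal decile, where the median was 11.6%. The enh region beside it, chr16:91259812-91267536, averaged 140 ± 9.25 in WT animals and 147 ± 18.5 in Het animals (SD, n = 5 each) and was higher in Het in 4 of 5 litters (log2 fold change 0.061, SE 0.11).

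At Sox10 the prom region had 287, 244, 278, 276 and 234 in WT 1 to 5 and 265, 255, 267, 287 and 217 in Het 1 to 5. The groups covered nearly the same range, and the interval of the fold change ran from 0.851 to 1.12. Its enh region chr15:78981448-78984413 had the smallest p of the members lower in Het. The values were 66.5, 66.2, 80.4, 64.5 and 79.2 in WT 1 to 5 and 56.9, 67.9, 69.3, 63.1 and 65.0 in Het 1 to 5. It was lower in Het in 4 litters and higher in litter 2, and the log2 fold change of -0.14 (SE 0.13, limma unadjusted p = 0.288) was about as large as its error. The other enh region, chr15:79003871-79008095, had 76.1 ± 6.44 in WT and 80.7 ± 8.20 in Het.

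Of the myelin genes, Mbp had 1778, 1746, 1702, 2083 and 1677 in WT 1 to 5 and 1590, 1929, 1971, 2019 and 1739 in Het 1 to 5 over its broad region. WT 4 stood above the other WT animals and Het 1 below every other animal. With between 827 and 2908 reads per library this region was the most deeply covered member, and the interval of its fold change ran from 0.915 to 1.16 (log2 fold change 0.040, SE 0.084). The other prom region, chr18:82638067-82650909, had 367, 371, 313, 407 and 305 in WT and 311, 379, 346, 361 and 275 in Het (log2 fold change -0.077, SE 0.094). The largest fold change of the members was at the enh region chr18:82675904-82679105. It had 80.6, 79.4, 55.0, 72.9 and 66.0 in WT 1 to 5 and 101, 73.6, 71.8, 77.6 and 85.6 in Het 1 to 5. Het exceeded WT in 4 of 5 litters (log2 fold change 0.21, SE 0.13, limma unadjusted p = 0.126, adjusted p = 1.00), and the interval from 0.958 to 1.40 includes no change. In the enh region chr18:82653537-82664811 animals were most alike, at 255 ± 8.20 in WT and 248 ± 14.8 in Het. The coefficient of variation there was 4.76%, lower than in all but 1.49% of regions in its decile. The 3 remaining Mbp enh regions had log2 fold changes from -0.075 to -0.026.

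Cnp, the second myelin gene, had 378, 336, 428, 380 and 371 in WT 1 to 5 and 335, 368, 437, 441 and 389 in Het 1 to 5 in its prom region. Het exceeded its WT littermate in 4 of 5 litters, but the groups overlapped nearly throughout (log2 fold change 0.054, SE 0.097, interval 0.906 to 1.19). The uaProm region had 87.0 ± 10.8 in WT and 88.1 ± 10.6 in Het. The 95% intervals of the fold change at the 15 regions lay between 0.748 and 1.40.

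**Figure D2:**
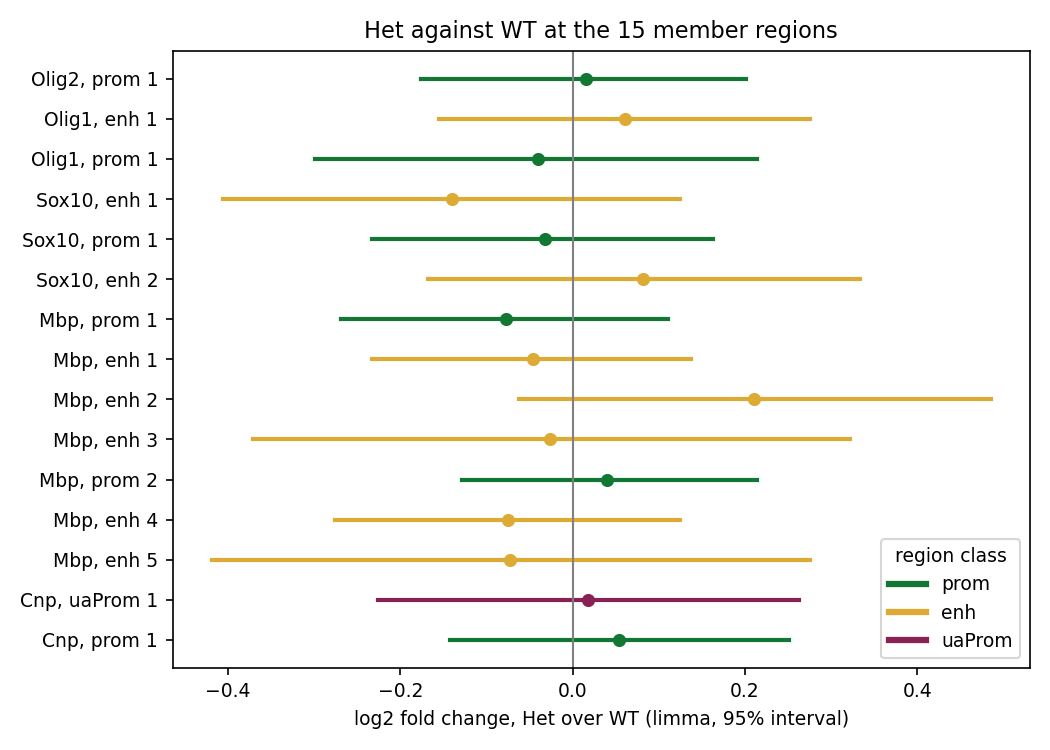
Log2 fold change of Het over WT (x axis) with its 95% interval from limma for each of the 15 regions (rows, numbered by position within window and class). Every interval crosses 0, and the estimates run from -0.14 to 0.21.

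Signal was also summed over the regions of each window. The sums were 2808 ± 243 pseudo-counts in WT and 2832 ± 216 in Het at Mbp, 289 ± 24.2 and 293 ± 41.4 at Olig2, and 296 ± 15.0 and 301 ± 46.8 at Olig1. Sox10 had 411 ± 24.3 and 403 ± 21.7, and Cnp 466 ± 26.3 and 482 ± 44.3 (SD, n = 5 each). Two-sided exact permutation tests between the genotypes gave p = 0.857 for Mbp, 0.889 for Olig2, 0.897 for Olig1, 0.587 for Sox10 and 0.524 for Cnp, unadjusted over these 5 tests; the smallest p this design allows is 0.00794. Differences within litters were of either sign. In litter 1 all 5 windows were lower in Het, from -0.233 (Olig1) to -0.097 (Olig2) on the log2 scale. In litter 2 all 5 were higher in Het, from 0.091 (Cnp) to 0.211 (Olig1). Litter 3 ranged from -0.031 (Sox10) to 0.225 (Olig1), litter 4 from -0.077 (Mbp) to 0.130 (Cnp) and litter 5 from -0.198 (Olig1) to 0.120 (Cnp). Counted by region, 3 of 15 were higher in Het in litter 1 and 11, 10, 7 and 7 in litters 2 to 5, where 57.5%, 46.5%, 44.3%, 56.2% and 53.8% of all regions were. The members were mostly stronger than the typical region, and these shares among strong regions alone are not at hand.

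**Figure D3:**
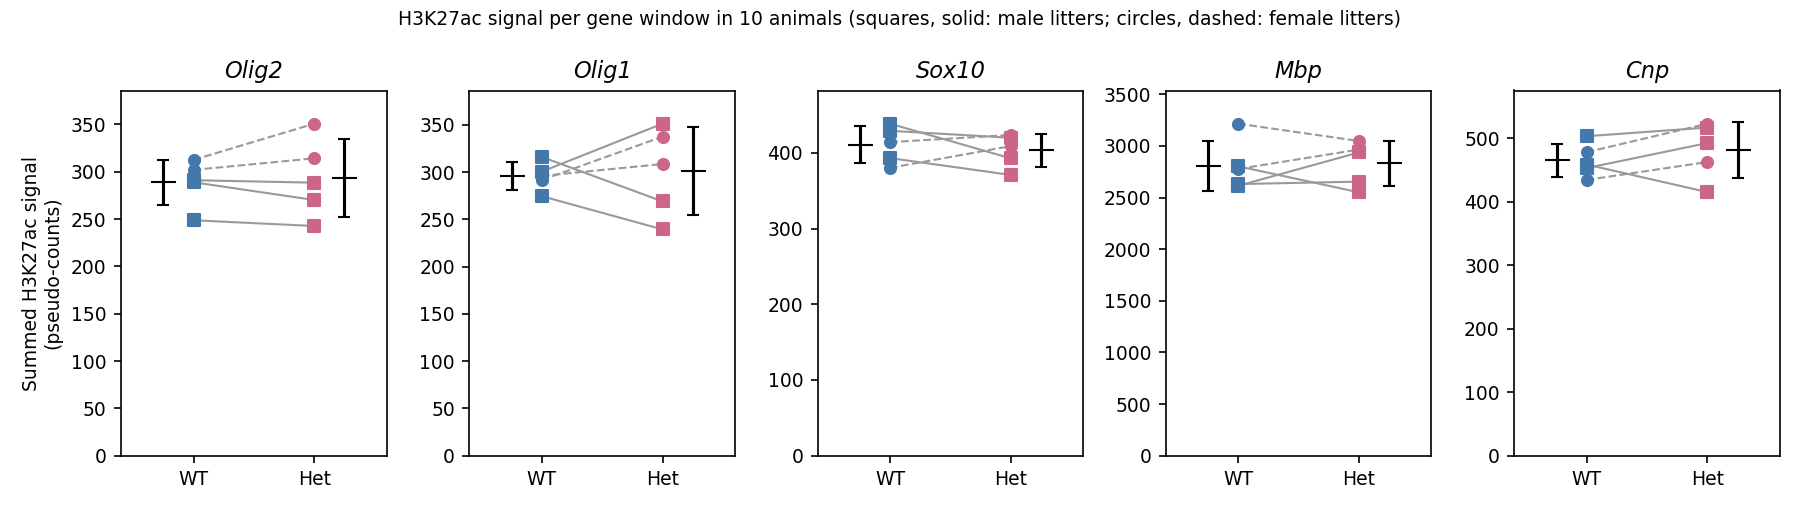
Summed pseudo-counts per gene window (y axis, from 0) in WT and Het animals, with littermates joined by lines, male litters as squares with solid lines and female litters as circles with dashed lines. Black bars give mean and SD of 5 animals. Lines run up and down in every panel, and in the Olig2 panel all females lie above all males.

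Between the sexes, none of the 15 regions passed the limma test (0.904% of all regions did), and 2 of 15 had an unadjusted p under 0.05, as did 13.2% of all regions; limma-voom gave the same 2 counts. All animals of a litter had the same sex, so the sexes differ by whole litters. The p-values for sex treat the 10 animals as independent although littermates resemble each other, so they may be too small. The 2 regions were prom regions. At Olig2 the 4 females had 302 to 351 pseudo-counts and the 6 males 243 to 291, so the sexes did not overlap, as in 3.15% of all regions (log2 fold change of males over females -0.24, SE 0.097, limma unadjusted p = 0.0194, adjusted p = 0.256). The Mbp region chr18:82638067-82650909 had 379 ± 19.7 in females and 319 ± 32.4 in males (log2 fold change -0.25, SE 0.096, unadjusted p = 0.0127, adjusted p = 0.213), and it passed without Het 3 (adjusted p = 0.0479), where 3580 of all 50898 regions did. The broad Mbp region had 1945 ± 147 in females and 1743 ± 129 in males (adjusted p = 0.435). Olig1, Sox10 and Cnp had prom means of 163 and 150, of 266 and 258, and of 381 and 390 in females and males. All adjusted p for these 3 were above that of Olig2.

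Whether the genotype effect differed between the sexes was tested as an interaction. No member passed by limma or limma-voom, nor did any region of the table (0.0%), and no member had an unadjusted p under 0.05, as 1.36% of all regions had. The largest interaction was at the Mbp enh region chr18:82675904-82679105, at 0.37 (SE 0.28, limma unadjusted p = 0.192), and the lowest at the Olig1 prom region, at -0.31 (SE 0.26).

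The last question was whether the 5 loci vary together across animals. Pearson correlations of the log2 window sums were above 0 in all 10 pairs of genes, with a median of 0.43 and a range from 0.08 (Olig2 with Cnp) to 0.74 (Olig2 with Olig1). For comparison, each window sum was correlated with the 5084 other regions of the strongest signal decile, and the median r was 0.47 for Mbp, 0.30 for Olig2, 0.40 for Olig1, 0.33 for Sox10 and 0.35 for Cnp; over all other regions the medians ran from -0.23 to -0.10. The median of the gene pairs, 0.43, lay below the value for Mbp and above those for Olig2, Olig1, Sox10 and Cnp. The comparison pairs a window sum with single regions, while the gene pairs join 2 window sums. Whether the loci vary together more than strong regions in general was not tested. No pair passed after adjustment over the 10 pairs by permutation with 100000 resamples. The neighbours Olig2 and Olig1 had r = 0.74 and rho = 0.56 (permutation p = 0.015 and 0.0964, adjusted p = 0.0785 and 0.241, n = 10), with r = 0.44 without the 2 animals farthest from the median and 0.85 in the 6 males. Olig1 and Sox10 had r = 0.73 and rho = 0.72 (permutation p = 0.0157 and 0.0228, adjusted p = 0.0785 and 0.228), with 0.57 without 2 animals and 0.85 in males. Mbp and Olig2 had r = 0.63 and rho = 0.62 (permutation p = 0.05 and 0.0606, adjusted p = 0.167 and 0.241), with 0.71 without 2 animals and 0.46 in males. The 4 females were too few for a value of their own. Littermates are not independent, so these p-values may be too small.

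Low sums were concentrated in a few animals. Het 1 was among the 3 lowest animals in all 5 windows, WT 5 in 4 and Het 5 in 3. Het 4 was among the 3 highest in 4 windows and Het 2 in 3. These 3 low animals were males of both genotypes and Het 4 and Het 2 were females, but the order did not follow sex throughout: the female WT 2 was among the 3 lowest in 2 windows, and the males WT 1, WT 3 and Het 3 were among the 3 highest in 2 windows each.

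Window sums were also compared with how strongly a library's signal was concentrated, and the Mbp sum alone passed, by r but not by rho. The strongest 5% of regions held from 28.2% of the signal in Het 1 to 33.6% in WT 4. By mean signal they include the broad Mbp region (above 99.8% of all regions) and the Cnp prom region (above 95.7%). They do not include the prom regions of Olig2, Sox10 and Olig1. The share thus contains part of the Mbp and Cnp sums, but this part is small. The whole Mbp window held from 0.0463% (Het 1) to 0.0569% (WT 4) of a library's signal, and Cnp from 0.00754% (Het 1) to 0.0093% (Het 4). Share and sums come from the same libraries, so their correlations are no independent support. With this share, the Mbp sum had r = 0.81 and rho = 0.70 (permutation p = 0.00456 and 0.0307, adjusted p = 0.0228 and 0.0862 over 5 windows, n = 10), with 0.61 without the 2 animals farthest from its median and 0.77 in the 6 males. Cnp had r = 0.72 and rho = 0.68 (permutation p = 0.0203 and 0.0345, adjusted p = 0.0507 and 0.0862), with 0.70 and 0.81. Olig1 had r = 0.62, Sox10 0.57 and Olig2 0.41, with adjusted permutation p of 0.0903, 0.11 and 0.237. Abundance-dependent loess, an alternative added after the values were seen, takes out differences between libraries that follow signal strength. After it the median r over the 10 gene pairs was 0.10, with 6 pairs above 0, a range from -0.32 to 0.67 and adjusted p of at least 0.333. After loess the correlation with the share was -0.037 for Mbp, 0.58 for Olig1, 0.45 for Sox10, 0.37 for Cnp and 0.0767 for Olig2, with permutation p adjusted over 5 windows of at least 0.377. With median-of-ratios factors, also added later, the median was 0.75 and 7 pairs passed. Correlations with other strong regions are not at hand under these factors, so the 7 pairs cannot be called particular to these genes. When a window was summarised by the mean of its log2 values, so that weak regions count as much as strong ones, the median was 0.12, with a range from -0.39 to 0.74 and 7 pairs above 0. The pooled correlations therefore depend both on the scaling of the libraries and on how regions are weighted.

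Region by region, correlations were higher among prom than among enh regions. The enh members were mostly weaker, with means from 43.3 to 252 pseudo-counts against 155 to 1824 in prom members. Class and strength therefore cannot be told apart here. As a description over 10 animals, which share their library for all regions, the 15 pairs among the 6 prom regions had a median r of 0.58, from -0.05 (Mbp chr18:82638067-82650909 with Cnp) to 0.82 (the same Mbp region with Olig2). Pairs among all 3463 prom regions of the strongest signal decile, which holds 5 of the 6, had a median of 0.31, and 90% of them lay between -0.62 and 0.87. That range is of single pairs and does not show how far the median of a set of 6 regions spreads. The 28 pairs among the 8 enh regions had a median of 0.04, with no background of other enh pairs beside it. The lowest, at -0.91, paired chr18:82675904-82679105 at Mbp with chr15:78981448-78984413 at Sox10, both weak regions with 32 to 112 and 40 to 102 reads per library. Within windows, prom and enh regions had a median r of -0.06 over 13 pairs, and the highest, 0.79, paired the broad Mbp region with the enh region chr18:82743711-82751116 just beyond it. Over all classes, pairs of regions in the same window had a median of 0.02 (26 pairs) and pairs from different windows 0.06 (79 pairs).

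**Figure D4:**
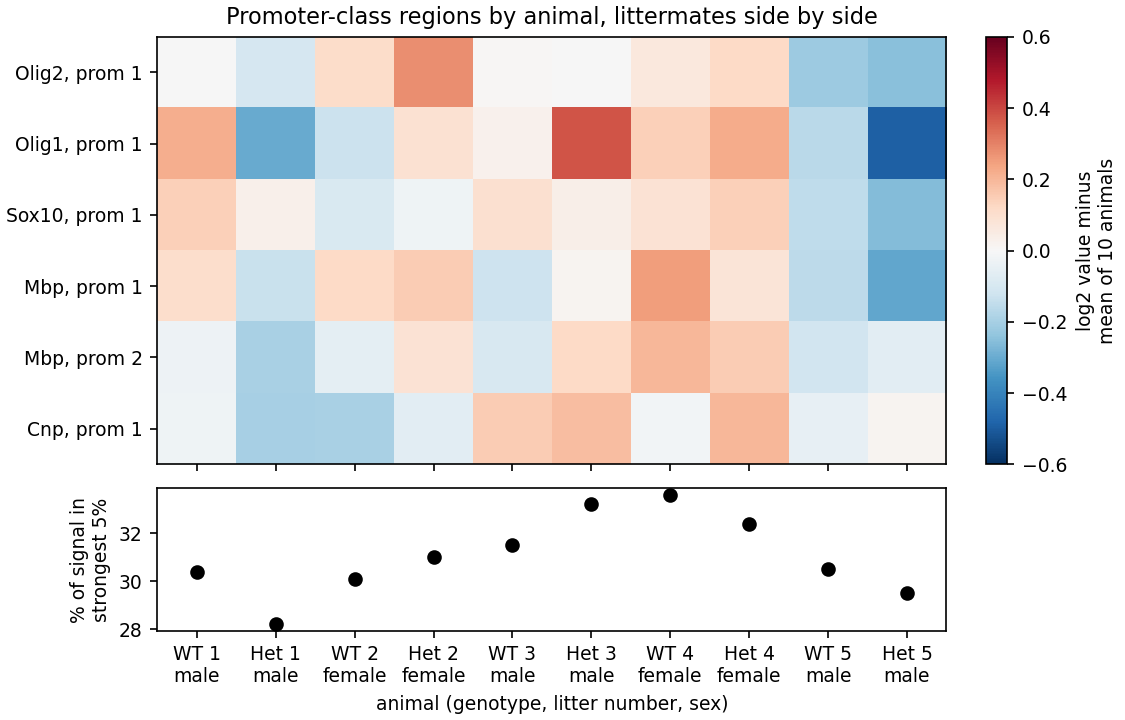
Upper panel: log2 value minus the mean of 10 animals (colour) for the 6 prom regions (rows) in each animal (columns, littermates side by side). Lower panel: percent of each library's signal in the strongest 5% of regions. Het 1 and litter 5 are low in most rows, and the share runs from 28.2% in Het 1 to 33.6% in WT 4.

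Outside the windows, the regions most like the mean of the 5 standardised sums were chosen from 45941 regions with a mean of at least 20 pseudo-counts. The closest was the prom region chr8:109458472-109463941 with r = 0.976 over 10 animals, from 216 in WT 5 to 294 in Het 4. It was followed by the prom regions chr16:20730203-20735770 (0.975), chr19:4609321-4617061 (0.969) and chr12:28022467-28029212 (0.969) and the enh region chr12:29369143-29404908 (0.964). These are the extremes of many regions, they share the libraries with the members, and they are given by position only.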

How the data were processed

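H3K27ac ChIP-seq libraries of 10 mice were used, grouped by the genotype labels. Bowtie2, edgeR and build mm9 are named in the submitters' processing notes; the sources used here name no versions and no region caller. The signal the authors deposited is a pseudo-count per region, per the file headers: reads adjusted to 1 common library size. The authors' table adds log2 fold change and abundance, with a p-value and FDR per region. The adjustment is not linear, draws shallow libraries towards their genotype mean and hides a uniform change. Whole reads were recovered by inverting it (common dispersion 0.0151); 99.885% of 508980 values fell within 0.1 of a whole read.

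As the unit is no count, limma 3.58.1 (R 4.3.3; trend, robust) was fitted to log2(value + 1) over all 50898 regions with sex and genotype as terms, with Benjamini-Hochberg adjustment at 0.05; this scale understates changes of weak regions. The interaction was a further term. Window sums were compared by exact permutation and correlated by permutation (scipy 1.17.1). Scripts were tested on simulated data.

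The labels name littermates, so numbers 1 to 5 pair the animals. In pair 5 the sample titles share no litter number, and the column headers name both animals together. Deviations of littermates correlated over regions at 0.232, 0.123, 0.0796, 0.365 and 0.419. The highest correlation of each WT animal with a Het of another litter was 0.0651, 0.168, 0.0387, 0.334 and 0.0993. In litter 2 a Het of another litter was thus closer than the littermate, and in litter 4 nearly as close. Named were the 3 strongest regions per window, the smallest genotype p in each direction and any region past a threshold. Members and lists were chosen with earlier results of these data known. The marker lists of the plan needed an mm9 annotation and were not used. Alternatives were pseudocounts of 0.5 and 5, a mean of at least 20, median-of-ratios factors, abundance-dependent loess, limma-voom, the litter block, no sex term and leaving out each library.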

Additional observations from a re-analysis of the deposited data

Results flagged for a closer look

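Of 34 groups of 5 animals tested for an animal far from the others, 1 stood out, where chance gives about 1.7 (1 in 20). In the broad Mbp region chr18:82686871-82742682, where Het animals had 1590 to 2019 pseudo-counts, WT 4 had 2083, against 1677 to 1778 in the other WT animals. The same library had the most concentrated signal, with 33.6% of it in the strongest 5% of regions; the part of that share in the value was not tested.

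At 2 genes the littermates of the sexes moved in opposite directions. The Olig2 window, which is its prom region, was lower in Het in all 3 male litters (mean log2 difference -0.048, from -0.097 to -0.013). It was higher in Het in both female litters (0.112), a difference of -0.16. The Sox10 window did the same, with -0.091 in males and 0.069 in females and a difference of -0.16. So did the Sox10 prom region alone, the largest part of that sum, with -0.094 and 0.062 and a difference of -0.156. The differences of the window sums were not tested. The share of all regions with such a split is not at hand, so it cannot be called unusual. At the prom regions the limma interaction was -0.16 (SE 0.20) for Olig2 and -0.16 (SE 0.21) for Sox10, with adjusted p = 1.00 for both.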

How the results depend on the processing

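No member region passed for genotype or interaction under any alternative run; for sex 1 passed without Het 3 (0 to 1 when single libraries were left out). Over all regions the genotype count of 1 was 3 with the litter block, 0 without the sex term and 0 to 1 without single libraries, and the sex count of 460 was 94 with median-of-ratios factors, 849 with loess and 14 (without WT 4) to 3580 (without Het 3) when single libraries were left out. The replicate block changed no call at the members; for the window sums the paired sign-flip test, whose smallest p is 0.0625, called none.

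With median-of-ratios factors the genotype difference changed sign at the prom region of Olig2 (-0.0057) and the uaProm region of Cnp (-0.0026) and in the sums of Mbp (-0.0088), Olig2 (-0.0058) and Olig1 (-0.0082), and the sex difference at the Cnp prom region (-0.0061). The Mbp sum also did with mean log2 values (-0.0064), and the sex difference of chr18:82675904-82679105 with limma-voom (0.035). Leaving out single libraries gave genotype differences of -0.015 to 0.062 (Mbp), -0.052 to 0.081 (Olig2), -0.046 to 0.092 (Olig1), -0.055 to 0.0024 (Sox10) and 0.016 to 0.10 (Cnp) for the sums. At the prom regions it gave -0.024 to 0.061 (Olig2), -0.16 to 0.072 (Olig1), -0.074 to 0.030 (Sox10), -0.0044 to 0.12 (Cnp) and -0.0034 to 0.081 (broad Mbp region), and -0.065 to 0.077 at the uaProm region and -0.014 to 0.12 at the Olig1 enh region. For sex it gave -0.10 to 0.062 at the Olig1 enh region, -0.082 to 0.067 at chr18:82675904-82679105, -0.024 to 0.11 at the Cnp and -0.099 to 0.0047 at the Sox10 prom region. None of these differences passed its test, and the cause of the sign changes was not tested.

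Correlations changed sign with mean log2 values for Mbp with Olig1 (-0.14) and Sox10 (-0.39) and Olig1 with Cnp (-0.038), and with loess for Mbp with Sox10 (-0.14) and Cnp (-0.32), Olig2 with Cnp (-0.32) and Olig1 with Cnp (-0.012). With median-of-ratios factors 7 pairs passed: Mbp with Olig2 (0.76), Olig1 (0.75), Sox10 (0.75) and Cnp (0.73), Olig2 with Olig1 (0.83), Olig1 with Sox10 (0.85) and Sox10 with Cnp (0.75). No background of other strong regions under these factors stands beside them. Depth limits the weak enh regions most, where WT 5 held as few as 22 reads.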
